A study of Mus musculus with 18 samples.

Results

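The exocrine gland secreted peptides (ESPs) described here are 10 genes of 1 mouse family, Esp1, Esp4, Esp6, Esp8, Esp15, Esp16, Esp18, Esp23, Esp24 and Esp31, chosen by their gene symbols among the 54232 genes of the count table. The table held 15 Esp genes in all, so 5 others (Esp3, Esp5, Esp34, Esp36 and Esp38) are given for comparison, and Esp22, which the annotation lists, was not analysed here. The lacrimal gland (LG) of male mice was profiled by bulk RNA sequencing in 2 strains, BALB/cJ (BALB/c, the control) and NOD.B10Sn-H2b/J (NOD.H-2b), at ages of 2 months (2M), 4 months (4M) and 6 months (6M), with 3 mice per group, 18 mice in all and 1 LG per mouse. NOD.H-2b mice carry the H2b haplotype of the major histocompatibility complex on the nonobese diabetic (NOD) background and are used as a model of Sjögren's syndrome, in which lymphocytes gather in the lacrimal and salivary glands. No mouse was treated and no allele was induced, so strain and age were the only labelled differences. The length of the donor segment around the H2 genes was not given in the sources used here, and the reads of both strains were aligned to the same reference genome, that of C57BL/6J.

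ESPs are small proteins secreted into tears by the extraorbital lacrimal gland and by some other exocrine glands, and other mice take them up by contact and sense them through V2R receptors of the vomeronasal organ. ESP1 is the best known member: it is released into tears by adult males, its level differs among inbred strains and depends on androgens, and through the receptor encoded by Vmn2r116 it makes females more receptive to mating. For most other members no receptor or behaviour is established, so they are described below by their level and their position.

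All 10 genes lie on chromosome 17 (GRCm38), from the start of Esp31 at 38639447 to the end of Esp1 at 40731782, a stretch of 2092 kb in which 9 genes are on the plus strand and Esp23 is on the minus strand. The nearest H2 gene, H2-M2, ends 1156 kb before this stretch. The family is diverse: over the 45 pairs of the 10 genes, the identity of the coding sequences had a median of 46.4% and a lowest value of 34.2%. Esp18 was closer to Esp16 (75.1%) and to Esp15 (73.65%). The pair most alike was Esp15 and Esp16, whose coding sequences of 255 bases each were 95.7% identical, with 11 substitutions and no gap. Both are printed 5′ to 3′ because they are the pair most alike in sequence and their strain differences were not alike; capitals mark the bases at which they differ. Esp15 lies at chr17:39640954-39645666 and Esp16 at chr17:39536142-39540847, both on the plus strand of GRCm38 (coding sequences from the GENCODE transcripts).
Esp15 coding: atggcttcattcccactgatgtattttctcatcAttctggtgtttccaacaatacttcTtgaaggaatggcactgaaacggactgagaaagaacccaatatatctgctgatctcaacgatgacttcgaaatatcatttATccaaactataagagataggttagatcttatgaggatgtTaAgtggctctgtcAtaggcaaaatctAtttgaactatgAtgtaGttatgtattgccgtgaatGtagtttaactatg
Esp16 coding: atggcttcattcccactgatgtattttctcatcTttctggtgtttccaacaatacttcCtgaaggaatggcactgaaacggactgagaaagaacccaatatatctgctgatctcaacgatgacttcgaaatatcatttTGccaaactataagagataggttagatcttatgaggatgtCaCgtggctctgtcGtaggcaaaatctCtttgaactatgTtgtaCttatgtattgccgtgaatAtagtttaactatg
Despite that identity, of the distinct stretches of 75 bases (the read length) in each transcript only 8.11% for Esp15 and 7.61% for Esp16 were shared, so most reads of that length could be assigned to 1 of them on the reference sequence.

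The 250 bases before the start of 9 of the 10 genes were in the RefSeq promoter table (GRCm38.p6), and no entry was used for Esp4. The starts here are those of RefSeq. That of Esp15 lies past the GENCODE start at 39640954, so its window ends inside the GENCODE gene. The windows of Esp15 (chr17:39640707-39640956, plus strand) and Esp16 (chr17:39535892-39536141, plus strand) were as alike as the coding sequences, with 96.3% identity over 245 aligned positions, and capitals again mark the differing bases.
Esp15 upstream: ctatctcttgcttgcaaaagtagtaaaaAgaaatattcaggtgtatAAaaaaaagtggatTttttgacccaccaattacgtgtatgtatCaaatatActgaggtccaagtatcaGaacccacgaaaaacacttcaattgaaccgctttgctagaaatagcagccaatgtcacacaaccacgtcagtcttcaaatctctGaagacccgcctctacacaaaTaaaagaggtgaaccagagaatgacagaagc
Esp16 upstream: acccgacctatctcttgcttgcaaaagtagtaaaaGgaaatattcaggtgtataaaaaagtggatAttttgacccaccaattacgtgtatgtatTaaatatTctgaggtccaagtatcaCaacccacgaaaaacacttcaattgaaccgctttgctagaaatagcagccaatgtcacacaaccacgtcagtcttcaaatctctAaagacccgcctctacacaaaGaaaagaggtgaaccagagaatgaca
The windows of Esp1 (chr17:40726870-40727119), Esp31 (chr17:38639197-38639446) and Esp24 (chr17:39036445-39036694), all on the plus strand, are shown because these 3 genes had a strain difference that changed by at least 2-fold from 2M to 6M. Capitals mark CCAAT and AGAACA, each searched on both strands (ATTGG and TGTTCT), the first being a common promoter element and the second the core of the steroid hormone response element.
Esp1 upstream: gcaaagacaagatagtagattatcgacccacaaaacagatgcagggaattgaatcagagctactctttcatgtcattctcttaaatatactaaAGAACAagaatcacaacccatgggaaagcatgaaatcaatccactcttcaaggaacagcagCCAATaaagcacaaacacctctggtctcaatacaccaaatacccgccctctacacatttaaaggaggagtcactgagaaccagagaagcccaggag
Esp31 upstream: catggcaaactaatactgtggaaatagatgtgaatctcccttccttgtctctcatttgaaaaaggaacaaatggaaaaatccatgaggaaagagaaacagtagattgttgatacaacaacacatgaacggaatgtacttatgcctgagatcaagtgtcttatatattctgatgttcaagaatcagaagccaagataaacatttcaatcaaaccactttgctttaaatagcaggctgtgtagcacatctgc
Esp24 upstream: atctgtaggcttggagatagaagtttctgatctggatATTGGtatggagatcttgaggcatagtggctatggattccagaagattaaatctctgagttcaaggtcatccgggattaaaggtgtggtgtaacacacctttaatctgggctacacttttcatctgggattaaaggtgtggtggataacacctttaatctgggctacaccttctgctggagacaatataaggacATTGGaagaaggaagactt
CCAAT stood in 7 of the 9 windows, against 33.8% of the 32851 promoters in the table. The windows are not independent, since those of Esp15 and Esp16 were 96.3% identical and those of Esp1 and Esp6 78.6%. AGAACA stood in 2 of the 9 (Esp1 and Esp8), against 16.1% of all promoters. Esp31 held neither and Esp24 held CCAAT alone, so neither motif separated the genes that were lower in NOD.H-2b from Esp24, which was higher. These are matches of letters in 1 reference genome and were not read from the sequence of either strain.

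The libraries held 49480781 to 103936830 counts per mouse, and no pair of mice within a group agreed within counting noise. Levels are given as counts per 1000000 (CPM) on library sizes scaled by the trimmed mean of M values, and levels of different genes are compared only as CPM per kb of exon. A gene was called a differentially expressed gene (DEG) when it differed by 2-fold or more with a false discovery rate (FDR) below 0.05 in edgeR's quasi-likelihood test across all genes, the study's own thresholds. All fold changes are log2 values of NOD.H-2b over BALB/c, or of 6M over 2M, with a standard error (SE). Epithelial markers were present in every mouse, and 9 of the 10 Esp genes were tested at every age, Esp8 being too low.

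These few genes made up a large share of the LG transcriptome. In BALB/c the 10 genes took 4.27% ± 0.083 of all counts at 2M, 3.86% ± 0.30 at 4M and 4.76% ± 0.128 at 6M (mean ± SD, n = 3). In NOD.H-2b they took 3.12% ± 0.129, 2.63% ± 0.0416 and 2.95% ± 0.322 at the same ages, and the strains did not overlap at any age. The other 5 Esp genes added little, bringing the BALB/c share at 6M to 4.81%.

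Ordered by CPM per kb, BALB/c LGs at 2M had Esp15 first at 16396 ± 650, then Esp6, Esp16, Esp18, Esp31, Esp24, Esp1, Esp4, Esp23 and Esp8. Of these neighbours, only Esp1 and Esp4 overlapped among the mice. In NOD.H-2b LGs at 2M the order was Esp6, Esp16, Esp15, Esp18, Esp24, Esp4, Esp31, Esp23, Esp1 and Esp8, and the first 3 overlapped with their neighbours. Esp1 thus stood at place 110 of all genes per kb in BALB/c and at place 10924 in NOD.H-2b at 2M. At 6M Esp15 was still first in BALB/c, at 17581 ± 1490 CPM per kb, and Esp16 and Esp6 followed with overlapping values. At the same age Esp16, Esp6, Esp15 and Esp18 led in NOD.H-2b with overlapping neighbours.

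**Figure D1:**
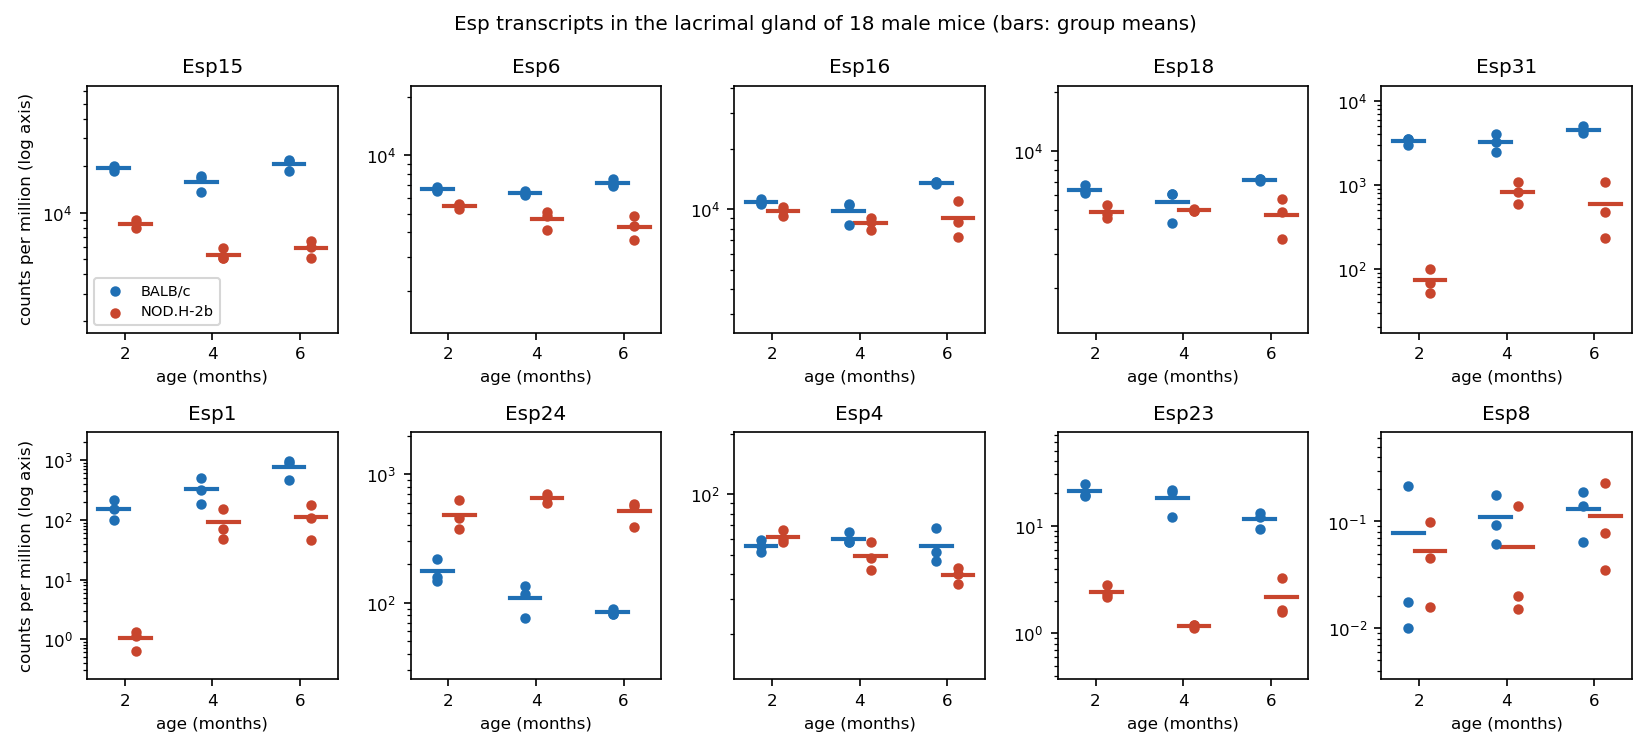
Level of each of the 10 Esp genes in each mouse, as CPM on a log axis whose range differs between panels, against age in months. Points are mice (3 per group), bars are group means, blue is BALB/c and red is NOD.H-2b, and the BALB/c mouse without an Esp8 count is drawn at 0.01 CPM. Esp1 and Esp31 are far apart between the strains at 2M and closer at 4M and 6M, while Esp24 is the gene that is higher in NOD.H-2b at every age.

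The first question was which Esp genes differed between the strains at each age. At 2M, 4 of the 9 genes tested were downregulated in NOD.H-2b (Esp1, Esp15, Esp23 and Esp31) and 1 was upregulated (Esp24), where 3.76% of all 17200 genes tested were downregulated and 12.0% upregulated. At 4M, 3 were downregulated (Esp15, Esp23 and Esp31) and Esp24 was upregulated, against 4.72% and 15.6% of 17722 genes. At 6M the same 4 genes as at 2M were downregulated and Esp24 upregulated, against 6.03% and 18.8% of 17750 genes. Esp15, Esp23 and Esp31 were therefore downregulated and Esp24 upregulated at all 3 ages. The 9 genes had median log2 fold changes of -0.34, -0.43 and -0.70 at the 3 ages, and that of all genes tested lay between -0.0041 and 0.0099.

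**Figure D2:**
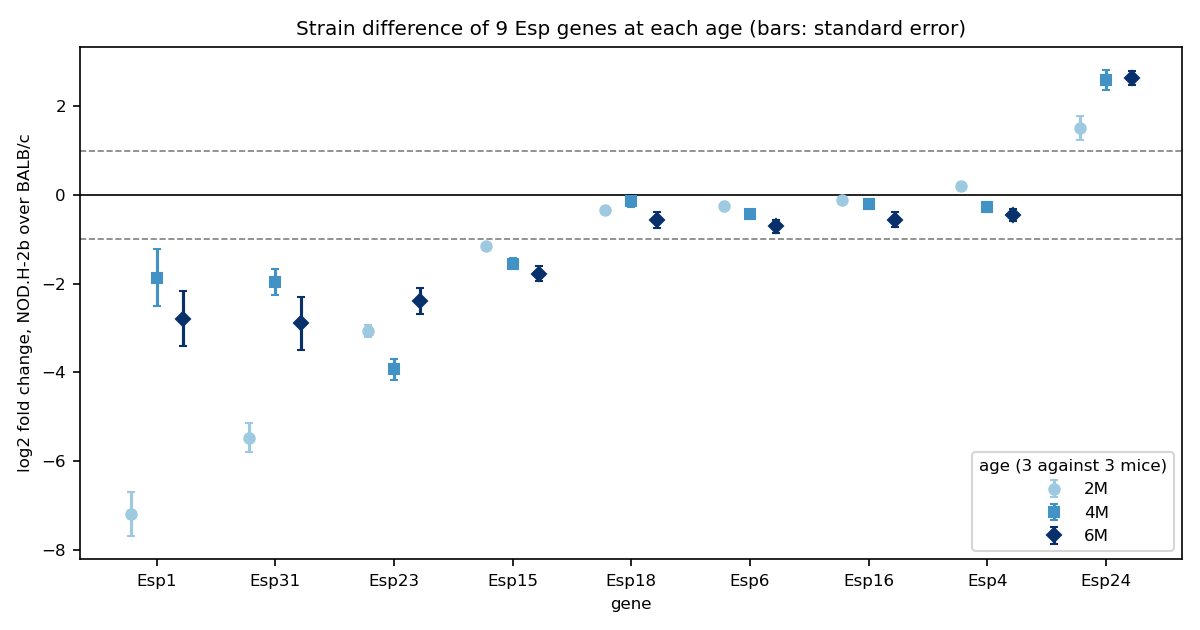
Log2 fold change of NOD.H-2b over BALB/c for the 9 Esp genes tested, at 2M, 4M and 6M (3 against 3 mice each), with bars for the standard error and dashed lines at the 2-fold threshold. Esp1 lies at -7.18 at 2M and at -2.79 at 6M, Esp15 moves from -1.14 to -1.77, and Esp24 from 1.51 to 2.64.

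Esp1, the male tear pheromone, had the largest strain difference of the 9 genes at 2M. BALB/c LGs held 99.5, 150 and 215 CPM at 2M, 184, 507 and 310 at 4M, and 891, 969 and 463 at 6M. NOD.H-2b LGs held 1.33, 1.13 and 0.645 CPM at 2M, 154, 47.9 and 71.1 at 4M, and 45.9, 109 and 175 at 6M. The NOD.H-2b mice of 2M thus had 41 to 81 counts each where BALB/c mice had 5205 to 12180, and the strains did not overlap at any age. The difference of the means was 150-fold at 2M, with a log2 fold change of -7.18 (SE 0.496, adjusted p = 6.01e-04 by edgeR's quasi-likelihood test). At 4M it was 3.66-fold, with a log2 fold change of -1.87 that did not pass the FDR (adjusted p = 0.0807 by edgeR, 0.0132 by DESeq2's Wald test and 0.0171 in 1 edgeR fit of all 18 mice). At 6M it was 7.05-fold (log2 fold change -2.79, SE 0.618, edgeR adjusted p = 0.0165), and the call was lost without the second NOD.H-2b mouse of 6M (adjusted p = 0.0773) and with the replicate number as a block (log2 fold change -2.92, adjusted p = 0.102).

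Esp1 was also the most variable of the 9 genes by its median over the groups, with a coefficient of variation of 34.1% to 61.5% within the 6 groups. Esp6, in contrast, varied by 2.08% to 13.8%. The spread in Esp1 within a group was wide enough that the first and second BALB/c mice of 4M were more than 2-fold apart.

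Esp31, the first of the 10 along the chromosome, stood at 2M at place 35 of all genes per kb in BALB/c and at place 262 in NOD.H-2b. BALB/c LGs held 3496, 3534 and 2984 CPM at 2M, 4075, 3281 and 2454 at 4M, and 4508, 5040 and 4144 at 6M. NOD.H-2b LGs held 52.0, 99.8 and 67.5 CPM at 2M, 1086, 591 and 823 at 4M, and 231, 476 and 1093 at 6M. Every NOD.H-2b mouse was below every BALB/c mouse, and relative to their mean the NOD.H-2b mice of 6M were the most spread of these groups, with a coefficient of variation of 74.1%. The means differed by 45.6-fold at 2M, 3.92-fold at 4M and 7.61-fold at 6M. The log2 fold changes were -5.47 (SE 0.327), -1.97 (SE 0.293) and -2.90 (SE 0.602), with edgeR adjusted p-values of 2.78e-04, 0.00319 and 0.0102. Without the second NOD.H-2b mouse of 6M the adjusted p at that age was 0.0714.

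Esp15, the most abundant of the 10 per kb in BALB/c, was lower in NOD.H-2b with little spread. BALB/c LGs held 19969, 19183 and 18447 CPM at 2M, 17049, 16640 and 13520 at 4M, and 21520, 18575 and 21669 at 6M. NOD.H-2b LGs held 8892, 8566 and 7896 CPM at 2M, 5081, 5952 and 5078 at 4M, and 5102, 6535 and 6029 at 6M. The strains were separated at each age, with log2 fold changes of -1.14 (SE 0.0583), -1.55 (SE 0.118) and -1.77 (SE 0.16). The edgeR adjusted p-values were 6.92e-08, 1.11e-05 and 1.13e-05, and no mouse left out changed the call.

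Its near-identical neighbour Esp16 did not pass the 2-fold threshold at any age. BALB/c LGs held 10631 to 11245 CPM of Esp16 at 2M, 8364 to 10591 at 4M and 13365 to 13651 at 6M. NOD.H-2b LGs held 9236 to 10243 CPM at 2M, 7839 to 9066 at 4M and 7307 to 11024 at 6M, and the strains overlapped at 4M alone. The log2 fold changes were -0.11, -0.20 and -0.55, with edgeR adjusted p-values of 0.143, 0.18 and 0.021.

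The ratio of Esp15 to Esp16 counts within a mouse does not depend on library scaling. The BALB/c mice of 2M had ratios of 1.86, 1.80 and 1.64, and the NOD.H-2b mice 0.868, 0.862 and 0.855. At 4M it lay between 1.58 and 1.62 in BALB/c and between 0.56 and 0.692 in NOD.H-2b, and at 6M between 1.39 and 1.59 and between 0.593 and 0.698. Esp15 thus outnumbered Esp16 in every BALB/c mouse and Esp16 outnumbered Esp15 in every NOD.H-2b mouse. The mean log2 ratio differed between the strains by -1.04 at 2M, -1.34 at 4M and -1.20 at 6M, each with a two-sided exact permutation p of 0.1, the smallest that 3 against 3 mice can give. Whether reads of the NOD.H-2b alleles of these genes aligned to the reference as often as those of BALB/c was not tested.

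**Figure D3:**
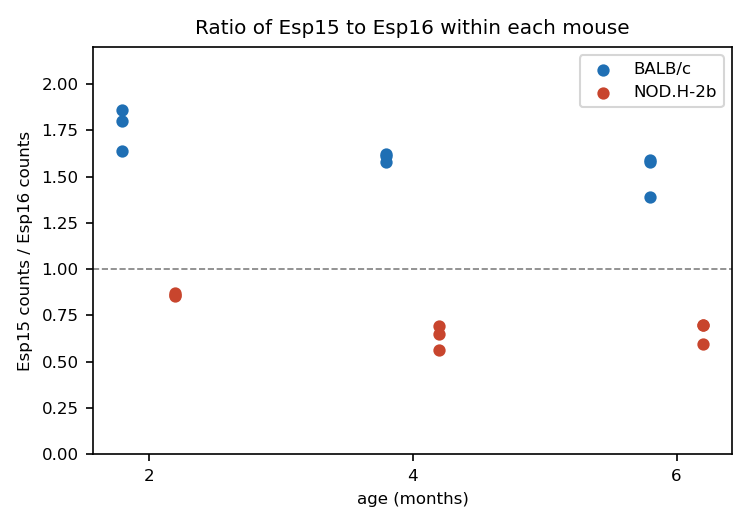
Ratio of Esp15 counts to Esp16 counts within each mouse (linear axis from 0), against age in months, with 3 BALB/c mice in blue and 3 NOD.H-2b mice in red at each age and a dashed line at 1. All BALB/c mice lie between 1.39 and 1.86 and all NOD.H-2b mice between 0.56 and 0.868.

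Esp23 and Esp24 are neighbours, 33.5 kb apart and on opposite strands, and their strain differences had opposite signs. Esp23 was a low transcript in BALB/c, with 24.5, 19.5 and 18.9 CPM at 2M, 21.5, 20.7 and 12.0 at 4M, and 12.1, 13.3 and 9.31 at 6M. In NOD.H-2b it reached 2.81, 2.19 and 2.31 CPM at 2M, 1.20, 1.13 and 1.20 at 4M, and 1.65, 1.59 and 3.28 at 6M, from 60 to 187 counts per mouse. The strains did not overlap, and the means differed by 8.60-fold, 15.4-fold and 5.33-fold. The log2 fold changes were -3.06 (SE 0.13), -3.93 (SE 0.241) and -2.39 (SE 0.285), with edgeR adjusted p-values of 3.52e-08, 1.11e-05 and 1.92e-04.

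Esp24 was the single gene of the 9 called higher in NOD.H-2b. BALB/c LGs held 159, 220 and 147 CPM at 2M, 134, 117 and 76.2 at 4M, and 81.7, 81.1 and 89.6 at 6M. NOD.H-2b LGs held 452, 624 and 373 CPM at 2M, 593, 704 and 667 at 4M, and 387, 582 and 570 at 6M. The lowest NOD.H-2b mouse was above the highest BALB/c mouse at each age, and the means differed by 2.76-fold, 6.00-fold and 6.10-fold. The log2 fold changes were 1.51 (SE 0.275), 2.59 (SE 0.219) and 2.64 (SE 0.157), with edgeR adjusted p-values of 0.0133, 2.30e-04 and 1.21e-06. At 2M the call was lost without the third BALB/c mouse (adjusted p = 0.0503).

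The other members differed by less than 2-fold. Esp18, which shares 75.1% of its coding sequence with Esp16, had log2 fold changes of -0.34, -0.13 and -0.56 at the 3 ages, with edgeR adjusted p-values of 0.00165, 0.446 and 0.0222. Esp6 had -0.24, -0.43 and -0.70 (edgeR adjusted p-values 0.00208, 0.00528 and 0.00225), and its 3 NOD.H-2b mice were below all 3 BALB/c mice at each age. Its counts are uncertain because it overlaps an annotated gene of 18043 bases that the count table names Esp5 and shares 16% of its stretches of 75 bases with it. Esp4, at 35.7 to 67.9 CPM in all mice, had 0.19, -0.28 and -0.45 (edgeR adjusted p-values 0.0489, 0.0712 and 0.0192).

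Counting by the FDR alone, at 2M NOD.H-2b had 6 of the 9 genes below BALB/c and 2 above, against 17.2% and 22.5% of all genes tested. At 4M 4 were lower and 1 was higher, against 19.2% and 23.4%, and at 6M 8 were lower and 1 was higher, against 25.8% and 28.6%. Esp24 was the higher gene at each age, joined by Esp4 at 2M alone. Esp8 had 0 to 13 counts per mouse in all 18 LGs, or at most 0.228 CPM, so a strain difference in it was not detectable at this depth.

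The second question was how the genes moved with age within each strain. In BALB/c from 2M to 6M, Esp24 fell by 1.06 on the log2 scale (SE 0.164, edgeR adjusted p = 0.0263) and none of the 9 was upregulated by at least 2-fold, where 0.115% of 16579 genes tested were downregulated and 1.57% upregulated. DESeq2 called 1 upregulated, Esp1. At an unadjusted p under 0.05 in edgeR 4 were higher, but the share of all genes at that p was not computed. The call of Esp24 was lost without the second BALB/c mouse of 2M, where the log2 fold change of -0.87 was under the threshold, and without any 1 of the 3 BALB/c mice of 6M (adjusted p between 0.0796 and 0.138), and with no filter on low counts (0.0559) or the replicate block (0.0569). Esp1 went from a mean of 155 CPM to 775 CPM, and its log2 fold change of 2.32 had an edgeR adjusted p of 0.0813, which was 0.0457 without the third BALB/c mouse of 6M. Esp31 (0.45, edgeR adjusted p = 0.0143), Esp16 (0.31, 0.00495) and Esp23 (-0.86, 0.0126) passed the FDR below 2-fold, so that 2 of the 9 were higher and 2 lower by the FDR alone, against 3.48% and 2.13% of all genes.

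NOD.H-2b LGs had 2 upregulated Esp genes between 2M and 6M, Esp1 and Esp31, and none of the 9 was downregulated, against 10.9% and 1.55% of 18008 genes tested. DESeq2 called none downregulated either, and 3 genes were lower at an unadjusted p under 0.05 in edgeR, all below 2-fold. For that count, too, the share of all genes was not computed. Esp1 rose by 6.71 on the log2 scale (SE 0.742, edgeR adjusted p = 0.00429), 106-fold by the means. Most of that distance was already present at 4M, where the mean of 91.1 CPM was 88.1-fold that of 2M and the 4M and 6M mice overlapped. Esp31 rose by 3.01 (SE 0.707, edgeR adjusted p = 0.0298), 8.21-fold by the means, and stood 11.4-fold above 2M at 4M, a step that was not tested. The Esp31 call did not hold without any 1 of the 3 NOD.H-2b mice of 2M or without the second of 6M, with adjusted p-values between 0.0651 and 0.0905, nor with no filter on low counts (0.0544). Esp4 (-0.65, edgeR adjusted p = 0.0013) and Esp15 (-0.54, 0.0176) passed the FDR below 2-fold, so that 2 were higher and 2 lower by the FDR alone, against 20.7% and 19.4% of all genes. Esp24 was at 0.07 (edgeR adjusted p = 0.836). The comparisons within a strain share their mice with the strain comparisons at 2M and 6M.

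The change of the strain difference itself was tested as an interaction of strain and age in 1 fit of all 18 mice. The difference moved upward from 2M to 6M by at least 2-fold for Esp1, Esp31 and Esp24 and for none of the 10 downward, where 3.60% and 1.50% of 19117 genes tested moved so. For Esp1 the deficit of NOD.H-2b shrank by 4.41 on the log2 scale (SE 0.925, edgeR adjusted p = 0.00936) and for Esp31 by 2.59 (SE 0.634, edgeR adjusted p = 0.0186). Without the first NOD.H-2b mouse of 2M, the adjusted p for Esp31 was 0.0518. For Esp24 the excess of NOD.H-2b grew by 1.14 (SE 0.333, edgeR adjusted p = 0.0351), a call that was lost in 9 of the 12 fits without 1 mouse of 2M or 6M, with adjusted p-values of 0.0552 to 0.0914 in those 9, and also with no filter on low counts (adjusted p = 0.069). Esp4, Esp6 and Esp15 passed the FDR in the other direction below 2-fold, at -0.63, -0.46 and -0.62 (edgeR adjusted p-values 0.0276, 0.0275 and 0.0123). At an unadjusted p under 0.05 in edgeR 4 moved downward, all below 2-fold, and DESeq2 called none downward. The share of all genes at that unadjusted p was not computed. By the FDR alone, 3 of the 10 moved upward and 3 downward, against 7.04% and 9.09% of all genes. Esp16 (-0.44, adjusted p = 0.08), Esp18 (-0.22, 0.479), Esp23 (0.68, 0.228) and Esp8 (0.34, 0.905) did not pass in the edgeR fit.

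Esp34, Esp36 and Esp3, of the 5 other Esp genes, were downregulated in NOD.H-2b at all 3 ages. Of all genes tested, 3.76% were downregulated at 2M, 4.72% at 4M and 6.03% at 6M. Esp34, the gene next to Esp31, had 82.1 ± 17.0 CPM in the BALB/c mice of 2M, where NOD.H-2b mice had 0.674 ± 0.0285 CPM (mean ± SD, n = 3), a difference of 122-fold that was 99.3-fold at 6M. At 6M the NOD.H-2b mice were widely spread, at 0.144, 0.998 and 3.26 CPM, from 11 to 186 counts. The log2 fold changes of Esp34 were -6.88, -6.15 and -6.67 (edgeR adjusted p-values 1.71e-06, 2.36e-04 and 0.00324). Unlike those of Esp31 and Esp1, its strain difference did not change detectably with age (0.22, SE 0.873, edgeR adjusted p = 0.903). The SE was wide, so a change smaller than those of Esp31 and Esp1 could be missed. Esp36 had log2 fold changes of -2.84, -4.43 and -4.52, and Esp3 of -2.15, -3.31 and -3.49. Esp5 and Esp38 were not called at any age. Esp5 had 123 to 344 counts per mouse, and 41% of its stretches of 75 bases were shared with other genes, Esp6 among them. Its counts are therefore uncertain.

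**Figure D4:**
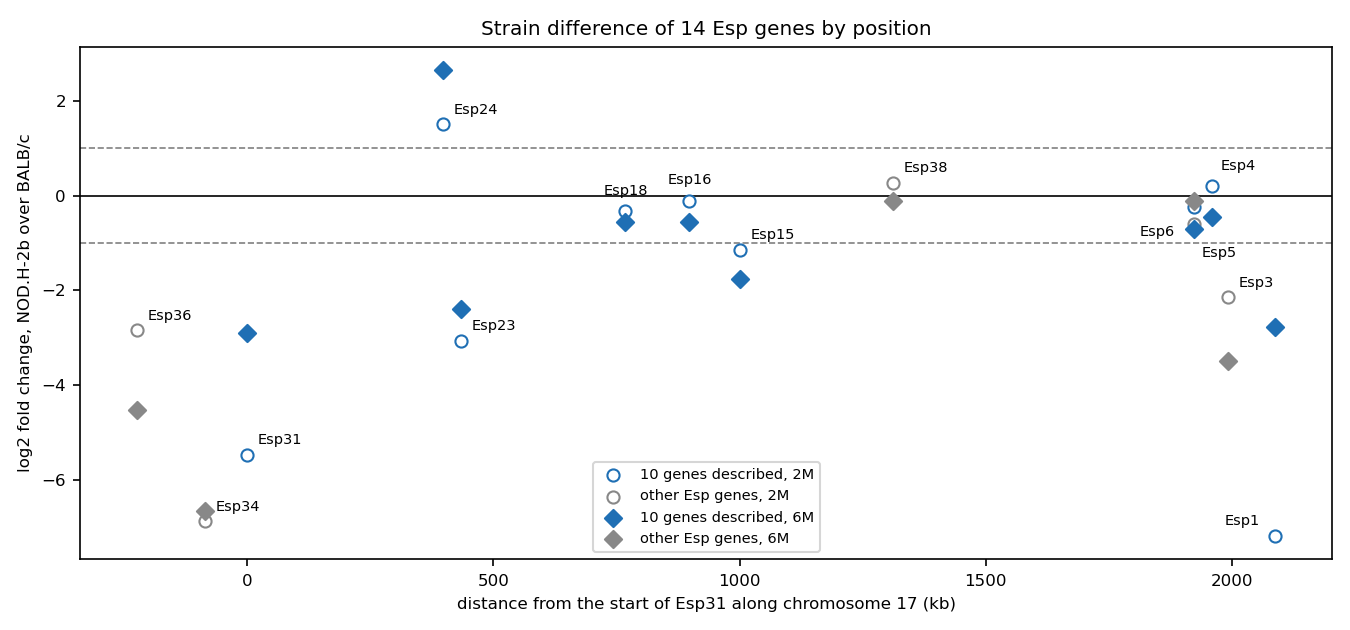
Log2 fold change of NOD.H-2b over BALB/c for 14 Esp genes against their distance in kb from the start of Esp31, at 2M (open circles) and 6M (filled diamonds), with the described genes in blue, the other Esp genes in grey and dashed lines at the 2-fold threshold. Some genes with unlike differences lie side by side: at 2M Esp23, at -3.06, is next to Esp24 at 1.51. Esp15 at -1.14 is next to Esp16 at -0.11, and Esp4, at 0.19, and Esp6, at -0.24, lie near Esp1 at -7.18. Between Esp4 and Esp1 lies Esp3, which was downregulated at every age. Genes with like differences also lie side by side: Esp36, Esp34 and Esp31 were all downregulated at every age.

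Most other genes of the region were too low to be tested. Of the 16 protein-coding genes that lie between the outermost of the 10 genes or within 500 kb of them, 5 were tested at 2M and 4M and 6 at 6M. None of the 16 was called at all 3 ages. Crisp1, which lies inside the cluster, was called lower in NOD.H-2b at 4M (means of 0.436 against 2.14 CPM) and 6M (0.813 against 2.33 CPM), and Crisp3 and Cenpq were called higher at 6M, these 3 being named after their values were seen. Among all genes tested, 4.72% were called lower at 4M, and 6.03% lower and 18.8% higher at 6M. The nearest tested gene past Esp1, Crisp2 (a cysteine-rich secretory protein of the testis), was called at none. On the other side, 6 olfactory receptor genes had 0 counts in every mouse and could not be tested.

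On the side of the hormone to which Esp1 is known to respond, 10 of 14 androgen-related genes were tested. By the FDR alone 5 were lower in NOD.H-2b at 2M, 6 at 4M and 6 at 6M and none was higher, where 17.2%, 19.2% and 25.8% of all genes tested were lower, and only Fkbp5 at 6M passed 2-fold. Fkbp5, a co-chaperone gene induced by androgens and glucocorticoids, had a log2 fold change of -1.31 at that age (SE 0.133, edgeR adjusted p = 2.76e-05). Srd5a1, which encodes an enzyme that makes dihydrotestosterone, was not called at any age. It had 9 to 33 counts per mouse, too few to detect a small difference. The 10 genes had a median of -0.29, -0.28 and -0.38 at the 3 ages. Vmn2r116, which encodes the ESP1 receptor, had 0 counts in every LG, and 1 of the 6 genes of the vomeronasal list was tested (Gnao1, a G protein subunit gene, not called at any age).

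Immune and secretory cell markers moved with strain and age in the same libraries. The summed level of 8 B cell markers was at most 2.51 CPM in BALB/c, whereas NOD.H-2b LGs had 1.61 to 31.1 CPM at 2M, 153 to 342 at 4M and 235 to 472 at 6M. The sum of 8 T cell markers was at most 5.98 CPM in BALB/c and 9.30 to 33.5, 70.6 to 126 and 80.2 to 112 in NOD.H-2b. The sum of 15 acinar markers, genes of the secretory cells, was 3707 to 4514 CPM over the BALB/c mice, and 2891 to 3341, 2238 to 2689 and 1780 to 2153 in NOD.H-2b at the 3 ages. By the FDR alone 8, 10 and 13 of the 15 were lower, against 17.2%, 19.2% and 25.8% of all genes tested. Car6, a secreted carbonic anhydrase gene, was the 1 acinar marker lower by at least 2-fold at each age. At 2M its means were 1297 CPM (BALB/c) and 169 CPM (NOD.H-2b), a gap in CPM, not in fold, about as large as that of the sum. The lower sum at 2M thus rested heavily on Car6. Its means in BALB/c and NOD.H-2b were 1188 and 160 CPM at 4M and 1224 and 99.8 CPM at 6M. The lower sums at these ages thus rested in large part on Car6 too. Pigr, the polymeric immunoglobulin receptor gene of the same list, was upregulated at 2M, from 138 to 619.9 CPM. None of these markers was at 0 throughout a group. In bulk RNA, fewer secretory cells and less RNA per cell cannot be told apart, and the part of the marker differences in the Esp differences was not tested.

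Within groups, 2 mice stood low for most Esp genes. The first NOD.H-2b mouse of 6M had the lowest value of its group for 7 of the 9 Esp genes, the lowest acinar sum (1780 CPM) and the highest B cell sum (472 CPM). Esp4 and Esp23 were the 2 genes in which it was not lowest. Esp24 was above BALB/c in that mouse too, at 387 CPM. The third BALB/c mouse of 4M likewise had its group's lowest value for 7 of the 9 genes and the lowest acinar sum (3851 CPM). It had the highest B cell, T cell and macrophage sums (2.51, 5.98 and 155 CPM). Both mice had the highest library scaling factor of their group (1.298 and 0.9989), and a higher factor gives a lower CPM. The share of all genes that were lowest in these mice was not computed. In every other group, the mouse with the lowest acinar sum had the highest B cell sum, but it was lowest for fewer Esp genes. The second NOD.H-2b mouse of 2M (2891 and 31.1 CPM) was lowest for 2 of the 9 and highest for 4. The first of 4M (2238 and 342 CPM) was lowest for 4 and highest for 2. The second BALB/c mice of 2M and of 6M were lowest for 3 and 4 and highest for 2 and 4.

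The genes outside the family with the pattern most like Esp31 over the 18 mice were Ppm1m, Gm14135, Ak4, Rps24 and Fth1, with Pearson correlations of log2 CPM from 0.98 to 0.93 among 7636 genes with enough counts. Most like Esp24 were Rps18, Dnase1, Gm43974, Rnps1 and Rpl26, from 0.954 to 0.947. These are descriptions only, since the mice fall into 2 strains and a gene that separates the strains correlates with any other that does.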

How the data were processed

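LG RNA from 18 male mice (RIN over 8 by the methods) was depleted of ribosomal RNA and sequenced as paired reads of 75 bases. According to the submitters' processing notes, the authors used cutadapt for trimming, STAR for alignment to GRCm38 and HTSeq for counts per gene. Versions, annotation release, strand setting and the handling of reads with several matches were not given in the sources used here. The deposited raw counts, 49480781 to 103936830 per mouse, were the input of every test. The deposited log2 values, which the authors made with DESeq2 size factors, were inspected but not tested.

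Mice were grouped by the strain and age in the labels. Genes were kept by edgeR's filterByExpr, and edgeR 4.0.16 (R 4.3.3) fitted quasi-likelihood models with TMM scaling, with Benjamini-Hochberg adjustment over all genes tested. Strains were compared at each age on 6 mice, 2M with 6M within each strain on 6 mice, and strain by age on 18. The SE is the size of the log2 fold change divided by the square root of F. Alternatives were DESeq2 1.42.0, other scalings and filters, no fold threshold, a replicate block, 1 common fit, and leaving out each mouse. The scripts were tested on simulated data. Replicate numbers did not pair the mice: over 15 pairs of same-numbered mice in compared groups, the correlation of deviations from the group means was -0.211 to 0.103, and 1 pair exceeded 0.1. Positions and exon lengths came from GENCODE M21 (GRCm38), promoters from RefSeq, and sequences were aligned with Biopython 1.88. The 10 genes, all named, and the marker lists were chosen with earlier results of these data known. Named besides by the rule were the other Esp genes, neighbours called at every age or nearest, the 5 best-correlated genes, Srd5a1 and Vmn2r116. Fkbp5, Gnao1, Car6 and Pigr, like Crisp1, Crisp3 and Cenpq, were named outside the rule with their values known. A gene that the naming rule lists is not reported here. Of the other marker lists at 6M, duct had 2 of 8 genes called higher in NOD.H-2b, myoepithelial 0 of 5 called, epithelial 1 of 8 higher, plasma cell 3 of 6 higher, macrophage 7 of 8 higher, B cell and T cell 8 of 8 each higher, salivary 0 of 1 and adipocyte 0 of 3 called, and muscle 1 of 1 lower, counting the genes tested, against 18.8% of all genes higher and 6.03% lower. By the FDR alone, epithelial had 6 of 8 and duct 5 of 7 higher at 2M (22.5% of all genes), and epithelial 5 of 8 lower at 6M (25.8%).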

Additional observations from a re-analysis of the deposited data

Results flagged for a closer look

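The strain difference of 6 Esp genes changed from 2M to 6M by edgeR's test of strain by age at an adjusted p under 0.05, whatever the size of the change. On the log2 scale, the difference of NOD.H-2b from BALB/c moved upward by 4.41 for Esp1, 2.59 for Esp31 and 1.14 for Esp24. It moved by -0.63 for Esp4, -0.46 for Esp6 and -0.62 for Esp15. With 3 mice per group, no separate test for a single outlying mouse was made.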

How the results depend on the processing

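Of the 55 fold changes of the 10 genes, 51 kept their sign under every alternative run, and 42 also kept their call under those that kept the fold threshold. With no fold threshold, 2 Esp genes were higher at 2M, 8 lower at 6M, 2 higher and 2 lower from 2M to 6M in BALB/c, 2 lower from 2M to 6M in NOD.H-2b, and 3 moved downward in strain by age. From 2M to 6M in BALB/c, DESeq2 and the fit of 18 mice each called 1 higher (Esp1), and with no filter on low counts and with the replicate block 0 were lower. With no filter, 1 gene rose from 2M to 6M in NOD.H-2b. The replicate number as a block, although it did not pair the mice, left the count of calls for each strain comparison within 1.5 times, but the call of Esp1 at 6M was lost (log2 fold change -2.92, edgeR adjusted p = 0.102). Leaving out 1 mouse at a time, the count was 0 to 1 for genes higher at 2M, 2 to 4 for genes lower at 6M, 0 to 1 higher and 0 to 1 lower in BALB/c with age, 1 to 2 higher in NOD.H-2b with age, and 1 to 3 upward in strain by age (1 without the first NOD.H-2b mouse of 2M). The signs that turned were of differences that were not called. Esp4 in BALB/c with age turned to 2.61e-05 in the fit of 18 mice, and ranged from -0.19 to 0.10 without 1 mouse. Esp18 in NOD.H-2b with age ranged from -0.23 to 0.10 and Esp24 from -0.074 to 0.31 without 1 mouse. Esp8 in strain by age turned to -0.11 with the block and ranged from -2.54 to 1.07 without 1 mouse. The cause of these shifts was not tested. Another scaling moved the median of all genes by less than 0.05. The depth left Esp8, at 13 counts or fewer, without a usable comparison.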
